A study of Mus musculus with 14 samples.

Results

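Control silencing between day 3 and day 5 of differentiation was followed in 4 of the 14 RNA-seq libraries, the day 3 and day 5 libraries of cells that carried the non-silencing hairpin (Nons), with 2 replicates at each day. They were chosen by their labels. The other libraries came from untransduced cells at day 0 or from day 3 and day 5 cells with a Setdb1 hairpin (shSetdb1.4 or shSetdb1.6). All 14 entered the read minimum and the estimate of spread used below. All cells were one line of female Setdb1+/+ Xist∆A/+ ES cells, derived from E3.5 embryos of CAST sires and dams given as 129/C57 in the labels and as 129 in the study's methods. For the day 3 and day 5 libraries, ES cells were moved stepwise from 2i plus LIF medium into medium with serum, transduced with a retrovirus and selected with puromycin. The labels place the transduction on day 2 and the methods on the day differentiation was induced. Every library, control or knockdown, carries Xist∆A on the 129 X, which keeps that X active (Xa) and makes the CAST X the one to be inactivated (Xi). As limits of the model, the line is a single F1 line and the study states that XO cells were present in its cultures. The share of XO cells in each library was not measured here, so fewer cells with a CAST X and less CAST RNA per cell cannot be told apart, and the same holds for changes of a gene's total.

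X inactivation equalises the X-linked dose between females and males. The long non-coding RNA Xist coats 1 of the X chromosomes in cis, gene by gene transcription from it is lost during differentiation, and a minority of genes, known as escape genes, stay expressed from both alleles. Reads that carry the CAST base of a SNP come from the Xi and reads that carry the 129 base come from the Xa, so the CAST/129 ratio follows silencing while the sum of both follows the abundance of the gene's RNA.

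The 2239 X-linked SNPs of the data held 51392 and 79969 reads at day 3 in replicates 1 and 2, and 87088 and 32972 reads at day 5. Day 5 replicate 2 was thus the shallowest of all 14 libraries. The CAST share of all reads was 50.0% in both day 3 libraries and 42.6% and 46.1% at day 5, with 95% Wilson intervals of 42.3% to 43.0% and 45.5% to 46.6% that cover counting error only. By the median SNP, the log2 Xi/Xa ratio changed by -0.47 in replicate 1 and by -0.25 in replicate 2. The mean of these changes was -0.36 ± 0.16 (SD, n = 2), with a two-sided exact permutation p of 0.333, which is the smallest that 2 libraries against 2 allow. Of 355 genes with a SNP in their exons alone, 247 reached 10 reads in all 14 libraries and were tested, and 108 did not. The labelled cell type could be checked only with X-linked markers. Nr0b1, a gene of pluripotent cells, was read at day 3, the blood genes Gata1, Btk, Was, Il2rg and Cybb had no SNP in the data, and of the neural marker Sox3 and the extra-embryonic markers Esx1, Rhox6 and Rhox9 no library of day 3 or day 5 had over 45 reads.

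**Figure D1:**
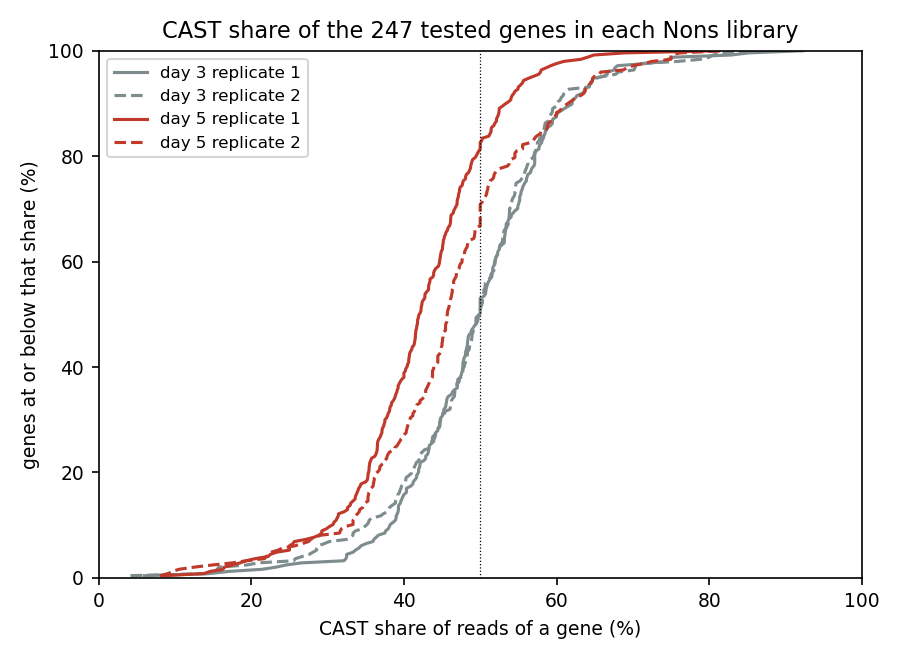
Cumulative distribution of the CAST share of reads (%) over the 247 tested genes in each of the 4 Nons libraries, with the vertical axis giving the percentage of genes at or below a share. The curves of the day 3 replicates overlap around 50%, and both day 5 curves lie to their left over most of the range, that of replicate 1 farther than that of replicate 2.

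The measurement is a choice between 2 bases within a transcript. For 8 genes on which the results turn, the SNP with the most reads over the 4 libraries, among those whose 21-base window lies within 1 exon, is shown in that window (mm10 and GENCODE vM21, 5′ to 3′ in the sense of the gene, reference base in capitals at position 11 from the 5′ end).
Zdhhc9: tctggccaggGaattctaact
Utp14a: tgcctgtcatGcagagcaatc
Bcorl1: ggaggaggtcGctcccacccc
Elf4: ctgggcatacTataacgcaga
Ap1s2: tttctctggaCctctccttag
Prps1: attgtaacaaTatcttcggta
Klhl13: tggttacactCggaggagtcc
Dkc1: ggtatctatgAtatttaggct
The CAST allele differs by G11A in Zdhhc9 (chrX:48173077-48173097, minus strand, UTR), G11C in Utp14a (chrX:48282258-48282278, plus strand, coding), G11A in Bcorl1 (chrX:48379020-48379040, plus strand, coding) and T11A in Elf4 (chrX:48411695-48411715, minus strand, UTR). It differs by C11T in Ap1s2 (chrX:163927663-163927683, plus strand, UTR), T11C in Prps1 (chrX:140475890-140475910, plus strand, UTR), C11T in Klhl13 (chrX:23235547-23235567, minus strand, coding) and A11G in Dkc1 (chrX:75109252-75109272, plus strand, UTR). At the Utp14a site the CAST base was read 36 and 76 times at day 3 and 26 and 25 times at day 5, while the 129 base was read 55 and 97 times at day 3 and 121 and 63 times at day 5. At the Klhl13 site the CAST base was read 64 and 87 times at day 3 and 371 and 94 times at day 5, against 65 and 89 and then 168 and 25 reads of the 129 base. The 2 sites moved in opposite directions, as their genes did.

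Which genes lost CAST reads relative to 129 reads was asked gene by gene with edgeR's quasi-likelihood test, in which all 14 libraries share the estimate of spread. The ratio fell in 24 genes and rose in 1, Klhl13, at a Benjamini-Hochberg adjusted p under 0.05. These are 9.72% and 0.405% of the genes tested (10.1% in either direction). Of all 247 genes, 131 (53.0%) had a lower ratio in both replicates, 23 (9.31%) a higher ratio in both, and 93 changed sign between replicates or had no change in one. The median change was -0.33 on the log2 scale with quartiles of -0.61 and -0.0030, so the 24 genes stand within a chromosome-wide shift. In the fit centred on the median gene of each library, which removes that shift, 10 genes had a lower ratio and 10 a higher one. The 10 lower genes, all among the 24, were AU015836, Ap1s2, Bcorl1, Klf8, Piga, Pls3, Prps1, Prps2, Utp14a and Zdhhc9. The 10 higher genes, whose change lay above that of the median gene, were Klhl13, Dkc1, Usp9x, Tceal9, Vbp1, Slc6a8, Tmem47, Flna, Alg13 and Uba1. For 177 genes the 95% interval held both 0 and the median change, so for most genes these libraries do not separate silencing with the rest of the chromosome from no change.

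The order within the 24 cannot be taken further than day 5, since no time lies between. As the fall of the ratio from day 3 to day 5 chose these genes, their CAST shares on those days are a description. The median CAST share of the 24 was 55.7% at day 0, 55.7% at day 3 and 36.0% at day 5, beside 48.6%, 50.0% and 44.3% over all genes tested. In the mean of the replicates, 15 of them had a CAST share above 50% at day 3 and 23 were below it at day 5, beside 123 (49.8%) and 183 (74.1%) of all 247 genes. Of their 168 SNPs with reads enough for comparison, 158 (94.0%) had a lower ratio at day 5 and 9 a higher one, which is a description, since the summed reads of these SNPs chose the genes. Over all SNPs compared, the ratio was lower at 751 of 1031 (72.8%) in replicate 1 and at 423 of 696 (60.8%) in replicate 2. SNPs that lie close together can share reads and are not independent.

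**Figure D2:**
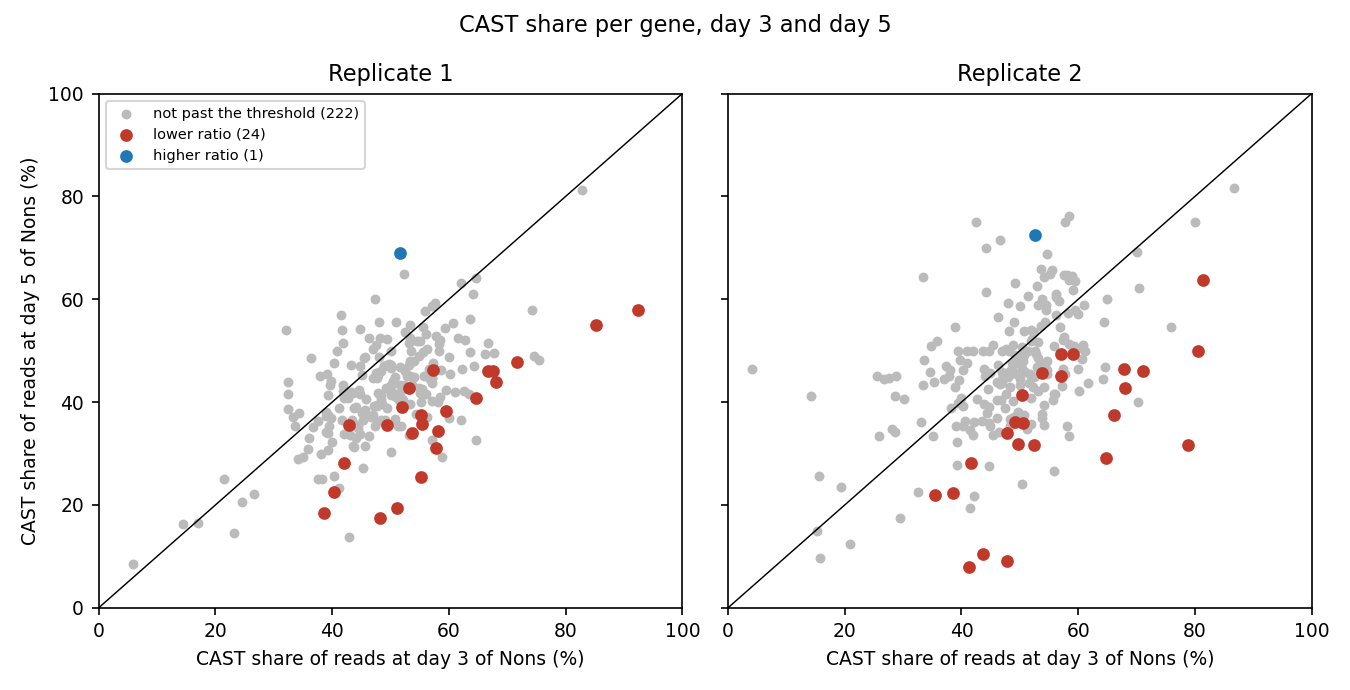
CAST share of reads (%) of each of 247 genes at day 3 (horizontal) and day 5 (vertical) of Nons, one panel per replicate, with the line of equal shares. The 24 genes with a lower ratio (red) lie below the line in both panels, Klhl13 (blue) lies above it, and most of the other 222 genes (grey) lie below it in replicate 1.

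The ratio fell together in a run of 4 neighbouring genes, a pattern seen after their values were known. Zdhhc9, Utp14a, Bcorl1 and Elf4 lie between chrX:48171969 and chrX:48463132 (mm10), 291 kb, and are all of the 4 protein-coding genes annotated there. The ends of the stretch were set by Zdhhc9 and Elf4 themselves, so that count is a description, beside 9.72% of all genes tested with a lower ratio. Zdhhc9, a palmitoyltransferase gene, had 93 and 78 CAST reads against 100 and 142 of 129 at day 3, and 79 and 27 against 372 and 96 at day 5. Its CAST share went from 48.2% and 35.5% to 17.5% and 22.0%, with no overlap between days, and its ratio fell by 1.59 (log2, SE 0.29, edgeR quasi-likelihood test with Benjamini-Hochberg adjusted p 4.07e-06). Utp14a, which encodes a protein of ribosomal RNA processing, had 103 and 175 CAST reads against 164 and 280 at day 3, and 78 and 50 against 343 and 173 at day 5. Its CAST share went from 38.6% and 38.5% to 18.5% and 22.4%, and its ratio fell by 1.30 (SE 0.26, adjusted p 1.53e-05 in the same edgeR fit). Bcorl1, a transcriptional corepressor gene, was read at low depth, with 16 and 31 CAST reads against 13 and 40 at day 3, and 28 and 4 against 82 and 34 at day 5. Its ratio fell by 1.90 (SE 0.50, adjusted p 0.00371). Elf4, a gene of the ETS transcription factor family, had 25 and 32 CAST reads against 37 and 35 at day 3 and 9 and 1 against 31 and 10 at day 5, and its ratio fell by 1.71 (SE 0.64, adjusted p 0.048).

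The totals of Zdhhc9, Utp14a and Bcorl1 did not pass the test, with log2 changes of 0.47, 0.08 and 0.72, and per 100000 reads of the library their 129 levels were higher at day 5 in both replicates while their CAST levels were lower or, in replicate 1 of Bcorl1, about the same. The 129 level of Zdhhc9 was 195 and 178 at day 3 and 427 and 291 at day 5, and its CAST level 181 and 97.5 and then 90.7 and 81.9. The total of Elf4 fell by 1.30 (SE 0.46, adjusted p 0.0454, lost without any single one of the 4 libraries). The nearest tested gene before the run, Ocrl, 206 kb away, changed its ratio by -0.13 (95% interval -0.68 to 0.42), and the nearest after it, Zfp280c, 78.5 kb away, by -0.19 (-0.76 to 0.39). Next came Rbmx2 at -0.74 (adjusted p 0.0619). Without day 3 replicate 1 the adjusted p of Zdhhc9 was 0.0775 (1.2e-06 to 0.0775 over its 11 alternatives) and its change -1.06. Bcorl1 missed the threshold without day 5 replicate 2 (0.0898) and with DESeq2 (0.0792). Elf4 passed in 0 of its 9 alternatives (adjusted p 0.0535 to 0.202), so its call is the least firm of the 4, and Utp14a passed in every fit.

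**Figure D3:**
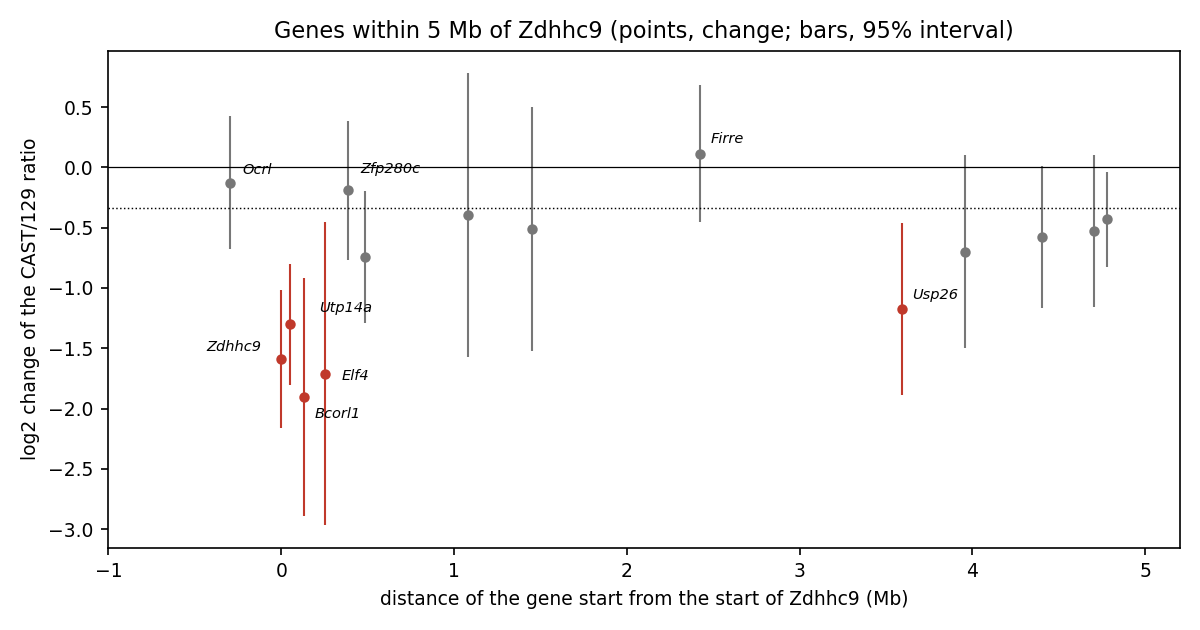
Log2 change of the CAST/129 ratio from day 3 to day 5 of tested genes within 5 Mb of the start of Zdhhc9, against the distance of their starts (Mb). Points are edgeR estimates and bars 95% intervals, the solid line is no change and the dotted line the median gene (-0.33). The 4 genes of the run and Usp26 (red) passed the test, and the flanking genes Ocrl and Zfp280c lie close to 0.

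The 250 bases before the RefSeq starts of these 4 genes (GRCm38.p6) are shown because the genes moved together, with CpG dinucleotides in capitals.
Zdhhc9, chrX:48208703-48208952, minus strand: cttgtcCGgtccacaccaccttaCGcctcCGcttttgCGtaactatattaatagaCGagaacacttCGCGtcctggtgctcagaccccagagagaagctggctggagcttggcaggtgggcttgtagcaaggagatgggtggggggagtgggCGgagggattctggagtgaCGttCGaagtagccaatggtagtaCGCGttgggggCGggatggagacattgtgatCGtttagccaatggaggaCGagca
Utp14a, chrX:48256684-48256933, plus strand: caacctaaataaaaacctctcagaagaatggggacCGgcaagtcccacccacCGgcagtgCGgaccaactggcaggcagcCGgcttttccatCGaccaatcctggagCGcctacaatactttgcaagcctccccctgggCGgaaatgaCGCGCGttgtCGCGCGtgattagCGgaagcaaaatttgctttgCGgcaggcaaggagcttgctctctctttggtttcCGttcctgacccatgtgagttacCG
Bcorl1, chrX:48341108-48341357, plus strand: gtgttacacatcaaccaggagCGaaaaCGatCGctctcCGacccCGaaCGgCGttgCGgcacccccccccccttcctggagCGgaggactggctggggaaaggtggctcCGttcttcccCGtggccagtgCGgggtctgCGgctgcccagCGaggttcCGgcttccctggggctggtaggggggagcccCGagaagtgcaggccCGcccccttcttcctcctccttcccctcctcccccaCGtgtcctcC
Elf4, chrX:48463133-48463382, minus strand: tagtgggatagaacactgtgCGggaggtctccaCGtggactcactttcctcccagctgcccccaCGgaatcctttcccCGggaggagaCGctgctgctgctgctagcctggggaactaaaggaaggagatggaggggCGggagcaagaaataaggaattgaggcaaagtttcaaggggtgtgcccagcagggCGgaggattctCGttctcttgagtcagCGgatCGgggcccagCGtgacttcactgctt
They hold 15, 17, 18 and 11 CpG dinucleotides, and the same stretch before the flanking genes Ocrl and Zfp280c holds 10 and 6. With the 50 bases after the start included, the counts are 20, 21, 21 and 14, beside 14 in Ocrl and 8 in Zfp280c. The letters CCATNTT, searched on both strands in windows of 250 bases before to 50 bases after the start, occur in none of the 4 and in 4 of the 23 lower-ratio genes with a promoter in the table (17.4%). They occur in 41 of the 190 other tested genes (21.6%) and in 239 of all 1223 X-chromosome promoters of that length (19.5%). The median number of CpG in these windows was 17 in the lower-ratio genes and 18 in the other tested genes.

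Ap1s2, which encodes a subunit of the clathrin adaptor AP-1, had the smallest adjusted p. It lies at chrX:163909017-163933666, near the distal end. Its CAST reads were 575 and 567 at day 3 and 270 and 51 at day 5, and its 129 reads 100 and 130 and then 221 and 29. The CAST share was 77.1% and 81.4% at day 0, 85.2% and 81.4% at day 3, and 55.0% and 63.8% at day 5, so Ap1s2 started from an excess of CAST reads and was the only one of the 24 still above 50% at day 5 in the mean of the replicates. Its ratio fell by 1.94 (SE 0.24, edgeR adjusted p 7.98e-13) and stayed past the threshold without any single library. The total fell by 1.4 (SE 0.35, adjusted p 0.0112), but not past the threshold without day 3 replicate 1 (adjusted p 0.083) or day 5 replicate 2 (0.0579). The ratio was lower at 12 of 12 SNPs with reads enough for comparison. That is a description, since the summed SNP reads give the gene's ratio and SNPs close together can share reads.

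Prps1 and Prps2, the genes of phosphoribosyl pyrophosphate synthetases at the head of nucleotide synthesis, lost both CAST share and total. Prps1 had 775 and 987 CAST reads at day 3 and 240 and 162 at day 5, against 625 and 743 and then 433 and 197 reads of 129. Its CAST share went from 55.4% and 57.0% to 35.7% and 45.1%, and both alleles fell in level in both replicates. The ratio of Prps1 fell by 0.94 (SE 0.18, edgeR adjusted p 1.53e-05) and its total by 1.4 (SE 0.22, adjusted p 0.000701). Prps2 had CAST shares of 59.5% and 53.7% at day 3 and 38.2% and 45.7% at day 5, again without overlap, with a ratio lower by 0.85 (log2 change -0.85, SE 0.20, adjusted p 0.000911) and a total change of -0.67 (SE 0.20, adjusted p 0.0224). Without day 5 replicate 1 the ratio change of Prps1 was -0.76 (adjusted p 0.0611, range 1.32e-05 to 0.0611 over 11 alternatives). With 1 SNP per gene the ratio change of Prps2 was -0.35 (adjusted p 0.669). Prps2 also lost its ratio call without day 3 replicate 1 (0.278) or day 5 replicate 1 (0.121), and its total call without any one of these or day 3 replicate 2 (0.0726 to 0.139).

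In 4 of the 24 genes the total rose while the ratio fell, so CAST reads were gained more slowly than 129 reads. Sh3bgrl had 25 and 29 CAST reads against 12 and 7 at day 3, and 276 and 98 against 323 and 98 at day 5. Per 100000 reads its CAST level rose from 48.6 and 36.3 to 317 and 297 and its 129 level from 23.3 and 8.75 to 371 and 297. The total rose by 3.49 (SE 0.29, edgeR adjusted p 1.2e-06), the largest total change among the 247 genes, and the ratio fell by 1.59 (SE 0.45, adjusted p 0.00434). Rnf128, a ubiquitin ligase gene, had CAST shares of 66.7% and 68.1% at day 3 and 46.1% and 42.7% at day 5, with a total higher by 2.43 (SE 0.40, adjusted p 0.000732). Pls3, the gene of the actin-bundling protein plastin 3, went from 68.0% and 71.0% CAST to 43.9% and 46.1% as its total rose by 1.18 (SE 0.26, adjusted p 0.00551). Pim2, a serine/threonine kinase gene, went from 57.2% and 59.1% to 46.2% and 49.3%. Its total was 446 and 760 per 100000 reads at day 3 and 1058 and 3658 at day 5, a rise of 1.95 (SE 0.61, adjusted p 0.0324). Without day 5 replicate 2 that rise was 0.80 (adjusted p 0.356, range 0.0106 to 0.356 over 12 alternatives). The ratio call of each of these 4 genes was lost without at least 2 single libraries, day 3 replicate 2 among them (adjusted p 0.11 for Sh3bgrl, 0.0935 for Rnf128, 0.097 for Pls3 and 0.0882 for Pim2). The rises of Sh3bgrl and Rnf128 held in every fit, and that of Pls3 was lost without day 3 replicate 2 (0.0648).

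**Figure D4:**
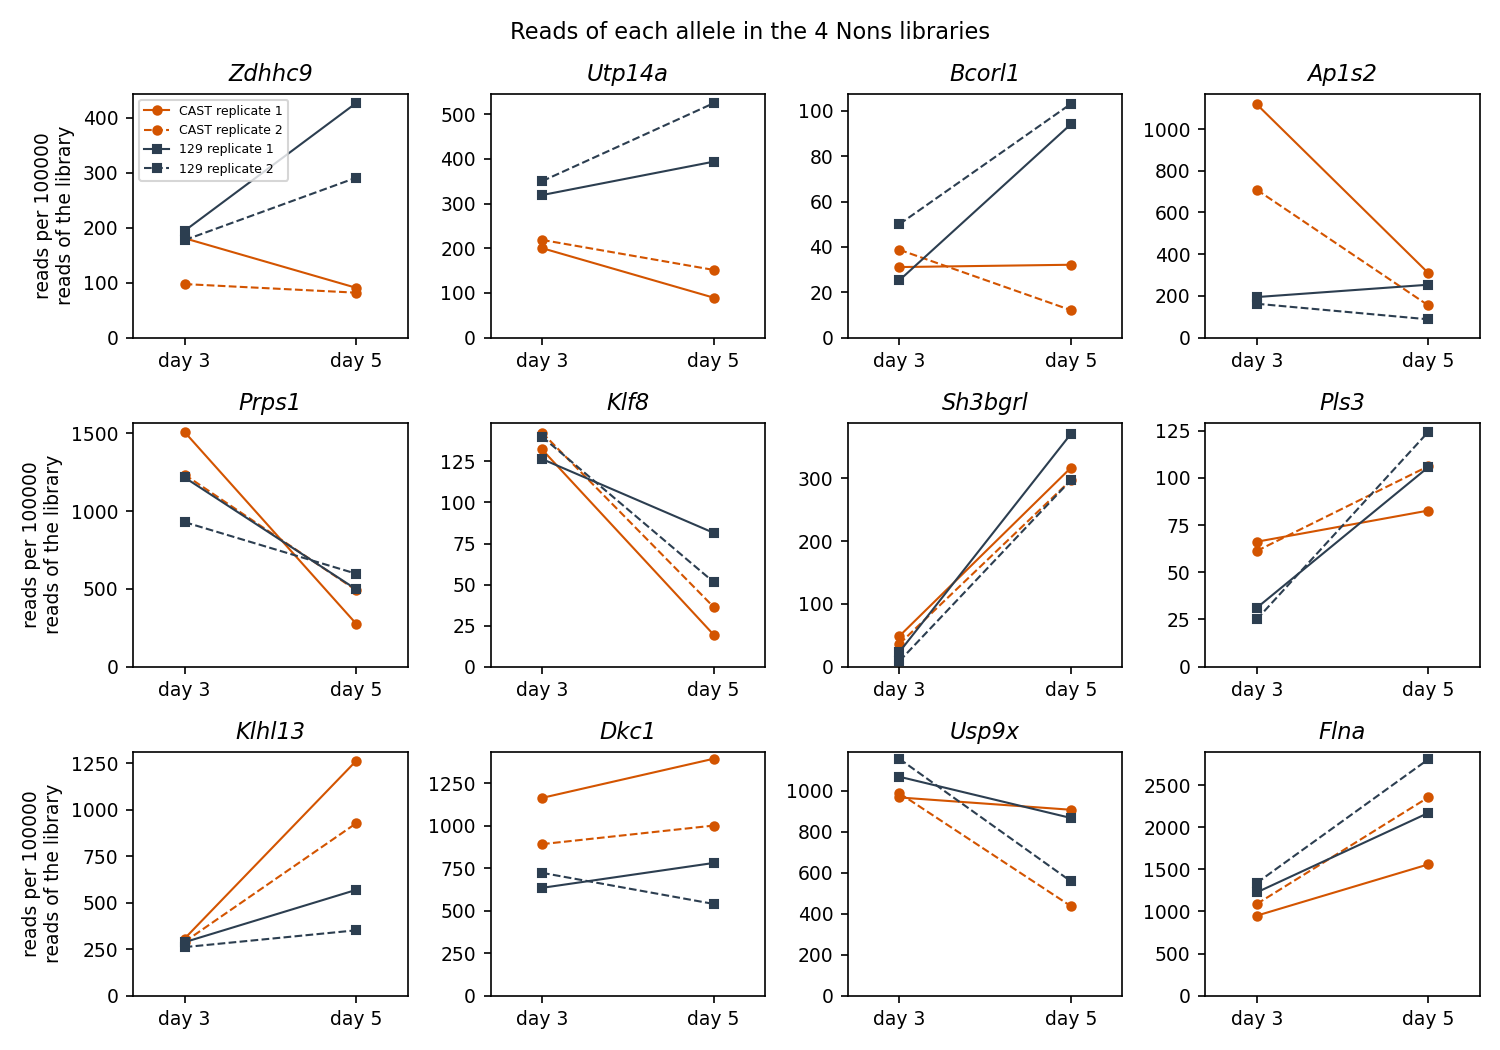
CAST (orange circles) and 129 (dark squares) reads per 100000 reads of the library at day 3 and day 5 of Nons for 12 genes, replicate 1 with solid and replicate 2 with dashed lines, each axis from 0. In Zdhhc9 and Utp14a the alleles part, in Prps1 and Klf8 both fall, in Sh3bgrl and Pls3 both rise and the 129 allele gains more, and in Klhl13 the CAST allele gains more.

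Over the 24 genes as a whole, the CAST level was lower at day 5 in both replicates in 16, higher in both in 4 and opposite between replicates in 4. The 129 level was lower in both replicates in 8, higher in both in 12 and opposite in 4. Over all 247 genes the CAST level was lower in both in 105 and higher in both in 63, and the 129 level lower in both in 76 and higher in both in 103. These levels are relative to a library total in which the CAST share itself fell. The totals of the 24 genes were lower in 9, higher in 4 and not past the threshold in 11, beside 12.1% lower and 15% higher among all genes tested (27.1% in either direction).

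Those 9 genes with a lower total are Ap1s2, Prps1, Prps2, Elf4, Klf8, Pcsk1n, Tbc1d25, Hdac6 and Pnma5. Klf8, a zinc finger transcription factor gene, had 68 and 114 CAST reads against 65 and 112 at day 3 and 17 and 12 against 71 and 17 at day 5. The CAST share of Klf8 was close to 50% in both day 3 libraries and 19.3% and 41.4% at day 5, its ratio changed by -1.56 (SE 0.42, edgeR adjusted p 0.00371) and its total by -1.50 (SE 0.35, adjusted p 0.00768). The ratio call rested on day 5 replicate 1, without which the change was -0.53 (adjusted p 0.736, range 0.000954 to 0.736 over 9 alternatives). Tbc1d25, a Rab GTPase-activating protein gene, went from CAST shares of 71.6% and 67.8% to 47.8% and 46.5%, and Pcsk1n, the gene of the neuroendocrine peptide precursor proSAAS, from 57.8% and 66.2% to 31.1% and 37.5%. The ratio call of Tbc1d25 was lost without day 3 replicate 1 (adjusted p 0.192), day 5 replicate 1 (0.0981) or day 5 replicate 2 (0.101), and that of Pcsk1n without day 3 replicate 2 (0.0819) or day 5 replicate 1 (0.175). Hdac6, the gene of a mainly cytoplasmic deacetylase, was the most deeply read of these after Prps1, and its share moved least, from 53.2% and 57.1% to 42.7% and 49.3%. The ratio call of Hdac6 was lost without any single one of the 4 libraries (adjusted p 0.128 to 0.431), and the total calls of Klf8, Tbc1d25, Pcsk1n, Hdac6 and Pnma5 were each lost without 1 to 3 of them (adjusted p 0.0563 to 0.261).

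Tbc1d25, Pcsk1n, Hdac6 and Pim2 are neighbours as well, within chrX:7878262-8176181 (298 kb), again noticed after the values. Of 9 tested genes there these 4 had a lower ratio, beside 9.72% of all genes tested, but the ends of the stretch were set by 2 of the 4, so the count is a description. Pqbp1, Wdr13 and Rbm3 between them had changes of 0.03, 0.15 and 0.16. Slc35a2, also there, had an estimate of -1.18 that did not pass (adjusted p 0.132). Eras, a Ras gene expressed in ES cells, lies in the same stretch, and its total fell by 2.53 (SE 0.48, adjusted p 0.00169) with a ratio change of -0.36 whose interval ran from -1.40 to 0.69.

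Of the remaining genes with a lower ratio and a total not past the threshold, AU015836 had a ratio estimate of -2.19 (SE 0.51, edgeR adjusted p 0.000336). This estimate ranged from -1.37 without day 3 replicate 1 to -3.73 without day 5 replicate 1. The reads of AU015836 were few. It was read 48 and 56 times from CAST against 4 and 15 times from 129 at day 3, and 99 and 6 times against 72 and 13 times at day 5, so its share at day 3 rested on few 129 reads, and without day 3 replicate 1 the adjusted p was 0.264 (0.000142 to 0.264 over 9 alternatives). Piga, whose product starts the synthesis of the GPI membrane anchor, went from CAST shares of 58.1% and 64.7% to 34.4% and 29.2% (ratio change -1.67, SE 0.45, adjusted p 0.00434). Usp26, a deubiquitinase gene, went from 53.7% and 41.3% to 34.0% and 8.0%, the last from 2 CAST and 23 129 reads. Arxes2, Bex2, Gm364, Pcyt1b and Tab3 make up the rest, with changes between -0.67 and -1.12. The ratio calls of Piga, Usp26, Pnma5 and these 5 genes were each lost without at least 2 single libraries, at adjusted p-values of 0.0553 to 0.489.

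Klhl13, which encodes a substrate adaptor of a Cullin 3 ubiquitin ligase, rose from the CAST allele. Its reads were 158 and 232 CAST against 148 and 209 of 129 at day 3, and 1101 and 306 against 496 and 116 at day 5. The CAST share went from 51.6% and 52.6% to 68.9% and 72.5%, and at day 0 it was 43.0% and 42.3%. Per 100000 reads, the CAST level rose from 307 and 290 to 1264 and 928, and the 129 level from 288 and 261 to 569 and 352, so both alleles were higher at day 5 in both replicates. The ratio rose by 1.16 (SE 0.21, edgeR adjusted p 3.04e-06) and the total by 1.45 (SE 0.27, adjusted p 0.00166). The calls of Klhl13 held in every alternative. A higher ratio was seen at 4 of 4 SNPs, again a description, since their summed reads give the gene's ratio.

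Among genes whose ratio did not fall, 14 had a 95% interval that lay wholly above the median change. As that interval chose them, their values are a description. The 8 with the narrowest intervals were Dkc1, Usp9x, Tceal9, Klhl13, Slc7a3, Vbp1, Eda2r and Slc6a8. Dkc1, the gene of the pseudouridine synthase dyskerin, had 598 and 713 CAST reads against 326 and 578 at day 3, and 1214 and 330 against 680 and 178 at day 5. Its CAST share was thus 64.7% and 55.2% at day 3 and 64.1% and 65.0% at day 5 (ratio change 0.27, interval -0.08 to 0.62). The change of Dkc1 rested on single libraries, as it was 0.00014 without day 3 replicate 2 and 0.53 without day 3 replicate 1. Relative to the median gene, in the centred fit, it was higher by 0.62 (adjusted p 0.00427), and so were Usp9x (0.49, 0.0161), Tceal9 (0.56, 0.0342), Vbp1 (0.67, 0.0458) and Slc6a8 (0.93, 0.0394). Usp9x, a deubiquitinase gene, had shares of 47.5% and 46.1% and then 51.1% and 43.9% (0.10, interval -0.25 to 0.45). Tceal9 stayed near 40% to 45% CAST in all 4 libraries while its total rose by 0.79 (SE 0.22, adjusted p 0.0157). In Vbp1, a prefoldin subunit gene, the total rose by 0.72 (SE 0.22, adjusted p 0.0296) and the ratio estimate was 0.33 (interval -0.17 to 0.84). Those rises were lost without day 3 replicate 1 or 2 or day 5 replicate 1, with adjusted p-values up to 0.101 for Tceal9 and 0.184 for Vbp1. Slc6a8, the creatine transporter gene, had shares of 32.4% and 34.9% at day 3 and 38.6% and 51.0% at day 5 as its total fell by 1.57 (SE 0.29, adjusted p 0.00137). Keeping the ratio therefore went with a higher total in some genes and a lower total in others. Slc7a3, a cationic amino acid transporter gene, and Eda2r, a receptor gene of the TNF receptor family, had ratio changes of 0.17 and 0.24 and no change of total past the threshold.

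None of the 4 known escape genes fixed by name passed the edgeR test for the ratio, against 10.1% of all 247 genes, and nothing about escape genes is read from that count. The H3K4 demethylase gene Kdm5c changed its ratio by -0.17 (95% interval -0.54 to 0.20), with CAST shares of 48.4% and 50.4% at day 3 and 46.1% and 46.6% at day 5. The H3K27 demethylase gene Kdm6a changed by 0.48 (-0.14 to 1.10), the translation initiation factor gene Eif2s3x by 0.07 (-0.42 to 0.56) and the RNA helicase gene Ddx3x by -0.32 (-0.72 to 0.07). None of these intervals excludes 0. That of Kdm6a alone lies above the median change of -0.33, but in the fit centred on the median gene Kdm6a did not pass (0.84, adjusted p 0.0667), and its ratio change was 0.015 without day 3 replicate 2 and 0.20 without day 5 replicate 1. Escape and the average change of the chromosome are thus not told apart for these 4 genes. The total of Eif2s3x fell by 0.77 (SE 0.21, adjusted p 0.0154), a call lost without day 3 replicate 2 (0.0952) or day 5 replicate 1 (0.075). Over the 7 tested members of a list of escape genes the median ratio change was -0.09, and 1, Utp14a, was lower, beside 9.72% of all genes. Firre, a long non-coding RNA gene of that list, kept a CAST share of 14.5% and 15.3% at day 3 and 16.3% and 14.9% at day 5, while its total rose by 2.18 (SE 0.50, adjusted p 0.0078). Without day 3 replicate 2 or day 5 replicate 1 that adjusted p was 0.0965 and 0.0676. A further member, 5530601H04Rik, had too few reads for the main test, with 6 and 6 CAST reads against 14 and 16 at day 3 and 18 and 6 against 8 and 1 at day 5. In a fit with no read minimum its ratio was higher by 2.78 (log2, SE 0.89, adjusted p 0.0206).

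Totals, the sum of both alleles scaled to the library total, rose in 37 genes and fell in 30 by the edgeR test with Benjamini-Hochberg adjustment, with a median change over all genes of -0.01. Scaled to the 129 reads, those of the active X, instead, 26 rose and 41 fell and the median was -0.16, so the balance of rises and falls depends on the scaling. Among the genes with a higher total 27 had a ratio estimate below 0 and among those with a lower total 23 did, and the median ratio changes were -0.36 and -0.47, beside -0.32 in the 180 genes whose total did not pass. Totals and ratios come from the same reads, and their Spearman correlation across the 247 genes was -0.044.

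The 5 rises of total with the smallest adjusted p were Sh3bgrl, Tmem47, Shroom2, Map3k15 and Armcx2. Tmem47, a gene of a membrane protein of cell junctions, was at 156 and 105 reads per 100000 at day 3 and 885 and 895 at day 5, a rise of 2.79 (SE 0.22, edgeR adjusted p 1.19e-06), and its CAST share was 32.5% and 33.3% and then 41.5% and 43.4%. Shroom2, the gene of an actin-binding protein of epithelial cells, went from 124 and 161 to 696 and 813 (2.39, SE 0.21, adjusted p 1.92e-06), with CAST shares of 56.2% and 48.8% and then 37.1% and 40.3%. In both genes the totals of the days were far apart, while neither ratio change passed the test (0.59, adjusted p 0.231, in Tmem47 and -0.72, adjusted p 0.103, in Shroom2). Map3k15 went from 121 and 65.0 to 495 and 600 per 100000 (2.58, SE 0.27, adjusted p 1.04e-05) and Armcx2 from 50.6 and 63.8 to 247 and 249 (2.10, SE 0.28, adjusted p 0.000148). Rlim, whose product is a ubiquitin ligase that promotes Xist expression, was among the most read, at 1603 and 1492 per 100000 at day 3 and 4397 and 3827 at day 5 (1.41, SE 0.24, adjusted p 0.000924). The ratio change of Rlim was -0.39 (interval -0.72 to -0.07, adjusted p 0.103). Flna, the filamin A gene, went from 2175 and 2426 to 3727 and 5159 per 100000 with CAST shares between 41.8% and 45.6% in all 4 libraries. Its total call was lost without day 3 replicate 1 (adjusted p 0.0651) or replicate 2 (0.0531).

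The 5 falls of total with the smallest adjusted p were Ebp, Prps1, Slc6a8, Gpc4 and Mcf2. Ebp, a sterol isomerase gene of cholesterol synthesis, went from 687 and 784 reads per 100000 to 184 and 252 (log2 change -1.78, SE 0.26, edgeR adjusted p 0.000348). Its CAST share was 45.6% and 54.5% at day 3 and 48.8% and 57.8% at day 5, so the fall was on both alleles. Gpc4, a heparan sulphate proteoglycan gene, went from 263 and 393 to 64.3 and 97.0 (-2.08, SE 0.33, adjusted p 0.000603), with a ratio estimate of -0.70 that did not pass (adjusted p 0.286). Mcf2, a guanine nucleotide exchange factor gene, went from 232 and 180 to 74.6 and 33.4 (-1.81, SE 0.34, adjusted p 0.00137). Without any single library, 19 of the 67 total calls held in each fit, Sh3bgrl, Tmem47, Shroom2, Map3k15, Armcx2, Rlim, Rnf128 and all 5 of these falls among them.

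**Figure D5:**
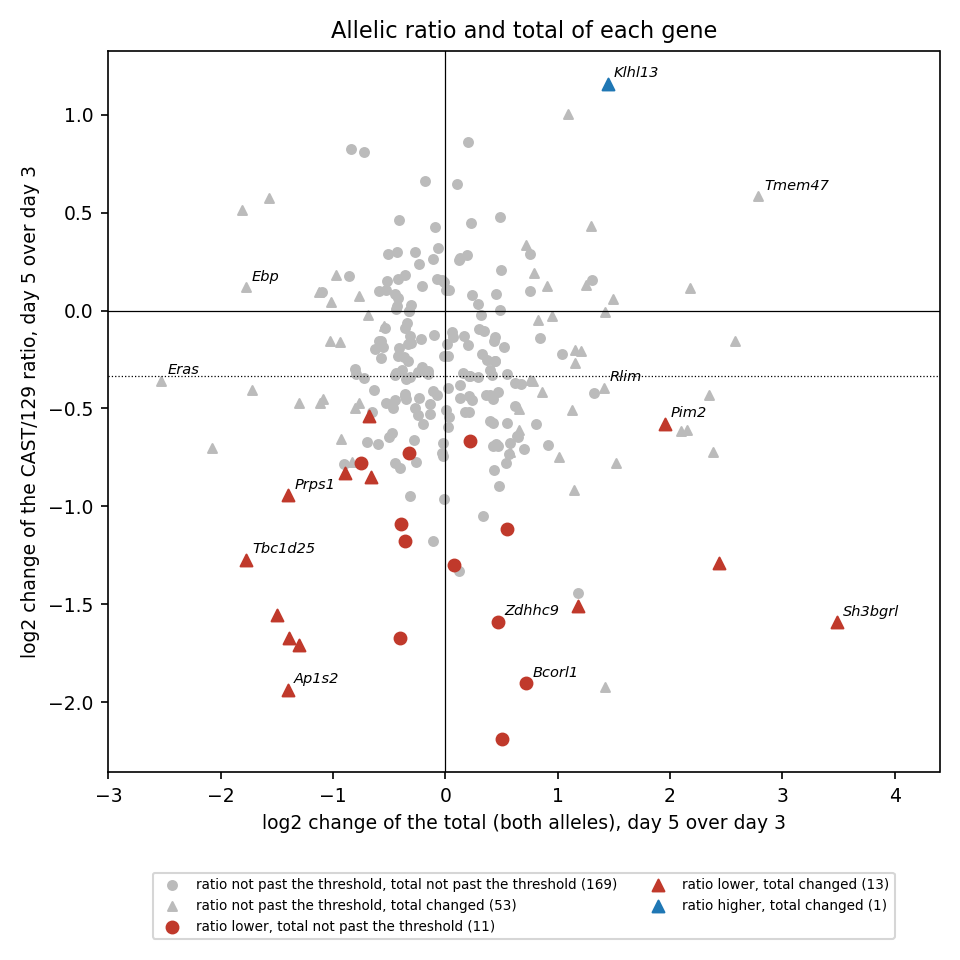
Log2 change of the CAST/129 ratio (vertical) against log2 change of the total (horizontal), day 5 over day 3 of Nons, for 247 genes, with the median ratio change as a dotted line. Lower ratios (red) occur with totals that were lower, higher or not past the threshold, and triangles mark the genes whose total passed the test.

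The minimum of 10 reads in every library leaves out genes that nearly vanished, so the 108 genes below it were looked at in a fit with no minimum. In that fit 20 of them had a lower and 8 a higher total, and 2 had a lower ratio (Esx1 and 4930502E18Rik) and 1 a higher one (5530601H04Rik). Nr0b1, a nuclear receptor gene of the pluripotency network, had 605 and 1288 reads at day 3 and 12 and 10 at day 5. At day 0 it had 588 and 1128, so its loss fell between day 3 and day 5, by 6.16 on the log2 scale (SE 0.46, edgeR quasi-likelihood test with Benjamini-Hochberg adjusted p 9.54e-08). At day 5 those reads were 7 and 4 from CAST and 5 and 6 from 129, too few to compare the alleles. Dusp9, also listed as an X-linked gene of pluripotent cells, rose in total by 0.66 (SE 0.22, adjusted p 0.0413, lost without any single one of the 4 libraries). Suv39h1, the gene of a histone H3K9 methyltransferase, had 4 and 10 reads at day 3 and 46 and 30 at day 5, a total change of 2.70 (SE 0.53, adjusted p 0.00099), but it overlaps another annotated gene, Gm14820. Itm2a went from 9 and 9 to 93 and 57 reads, with 22 and 18 of those at day 5 from CAST.

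By function, the lists of genes were described by counts alone, to be read against the 9.72% of all 247 genes with a lower ratio and the 12.1% with a lower and 15% with a higher total. The counts of each list are small, and no list was tested against the other genes. Nucleotide and lipid metabolism had 4 of 25 tested members with a lower ratio (Prps1, Prps2, Pcyt1b and Piga) and a median change of -0.54, beside -0.33 over all genes. The totals of this list were lower in 7, Ebp, Gpc4 and Alg13 among them, and higher in 4, including Ctps2, a CTP synthase gene that rose by 1.52 (SE 0.26, edgeR adjusted p 0.000924). Alg13, which acts in the glycosylation pathway, kept its CAST share, at 37.6% and 39.5% at day 3 and 36.3% and 39.9% at day 5. Its total change of -0.69 (SE 0.23, adjusted p 0.0372) was not past the threshold without day 3 replicate 2 (0.282) or day 5 replicate 2 (0.221). The transcription factor list was drawn broadly and also holds Atrx and genes of the Bex and Tceal families. It had 3 of 18 lower (Klf8, Elf4 and the Bex family gene Bex2, median -0.48), with 2 lower and 2 higher totals. Chromatin regulators had 2 of 20 (Bcorl1 and Hdac6, median -0.33), with totals lower in 2 and higher in 1. With DESeq2, 2 ratios were called in nucleotide and lipid metabolism, and 0 in the transcription factor and the chromatin lists, where 6 and 4 had an unadjusted edgeR p under 0.05.

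The lists that follow are read against the same shares of all 247 genes, 9.72% with a lower ratio, 12.1% with a lower and 15% with a higher total. In the ubiquitin pathway 2 of 15 members had a lower ratio (Rnf128 and Usp26) and Klhl13 a higher one (median -0.42, 1 called with DESeq2), and totals were higher in 3 and lower in 1. Membrane traffic and cytoskeleton had 1 of 23 lower (Ap1s2, median -0.37), while totals were higher in 7, including Tmem47, Flna, Vbp1, the tetraspanin gene Tspan7 (2.35, SE 0.40, adjusted p 0.000924) and the scaffold gene Dlg3 (2.15, SE 0.36, adjusted p 0.000922), and lower in 1. RNA binding, ribosome and translation genes had 1 of 25 lower (Utp14a, median -0.30), with totals lower in 3 and, by edgeR or DESeq2, higher in 0 (2 at an unadjusted p under 0.05). Cell cycle and genome maintenance had 1 of 18 (Pim2, median -0.34, 0 with DESeq2 and 5 at an unadjusted edgeR p under 0.05), with totals lower in 2 and higher in 2. Genes of mitochondria and energy metabolism had 0 of 15 ratios past the threshold by edgeR or DESeq2, and 0 at an unadjusted p under 0.05, with a median of -0.26, 2 lower totals and 1 higher total. None of the 4 tested neighbours of the X inactivation centre (median -0.35) and none of the 3 tested MAGE genes (median -0.46) passed for the ratio by edgeR or DESeq2. In each of these lists 1 ratio had an unadjusted p under 0.05, and 1 total was higher. The lists of extra-embryonic and neural markers had no gene above the read minimum.

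Distance from Xist separated genes little. The median ratio change was -0.34 in the 44 genes within 10 Mb of Xist, -0.31 in the 4 genes from 10 to 25 Mb, -0.33 in the 106 from 25 to 50 Mb and -0.34 in the 93 farther away. Lower ratios passed the test in 3, 1, 8 and 12 of them, beside 9.72% of all 247 genes. In stretches of 10 Mb the median change ran from -0.74 in the 10 genes at 40 to 50 Mb, 4 of them the run from Zdhhc9 to Elf4, to 0.085 in the 9 genes at 140 to 150 Mb. It was -0.58 in the 18 genes at 50 to 60 Mb, -0.56 in the 22 at 130 to 140 Mb and 0.064 in the 5 at 60 to 70 Mb, and these stretches were not tested against each other. Across the 247 genes, which share libraries and are not independent, Spearman's rho of the change with this distance was 0.0076, with the reads at day 3 0.028 and with the CAST share at day 0 -0.26, and across the 213 genes with a promoter sequence it was 0.11 with the number of CpG and 0.18 with the number of CCATNTT matches. Genes with a higher CAST share before differentiation thus tended to have the lower change, a description without a test.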

How the data were processed

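Subread was used by the authors for mapping to mm10, and the deposited values are raw counts of bases, 129 or CAST, at X-linked SNPs from samtools pileup, neither pooled nor normalized. A further 4 per-sample columns in the deposited table match no labelled sample and were left out. SNPs were assigned to genes by GENCODE vM21 exons (2173 of 2239 SNPs in exons of exactly 1 gene) and their counts summed. A read over several SNPs counts at each, counting is not stated to use strand, and reads of similar gene copies may be shared. Xist itself and autosomal genes were not analysed here. Some X-linked genes are not reported here.

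Ratios were fitted in edgeR 4.0.16 (R 4.3.3, quasi-likelihood test, Benjamini-Hochberg adjustment over the 247 genes that reached 10 reads in all libraries) with a term per library, an allele effect per condition and an allele effect of the replicate number (replicate block). The study compared samples within its 2 replicate experiments, which is where the pairing comes from. Deviations of same-numbered libraries from their condition means had a mean correlation over 21 pairs of conditions of 0.051 for ratios and 0.21 for totals. Totals were fitted without the block and scaled to the library total. P-values of the gene tests measure the spread left between libraries of the same condition, pooled over the conditions of all 14 libraries, on a single line. For ratios, the block takes the average allelic difference between the 2 experiments out of that spread. The models were tested on simulated data (50 of 247 genes changed). Changes of 1.5-fold were recovered in 14.7% of ratios and 8.67% of totals. For 2-fold changes of the day 5 to day 3 ratio it was 59.3% and of totals 60.7%, and for 3-fold changes 93.3% and 96.7%. Unlike the data, the simulation had equal allele shares in unchanged genes, the same spread in every gene and no chromosome-wide shift. DESeq2 1.42.0, other read minimums, scalings, the block, 1 SNP per gene and leaving out each library were the alternatives.

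Members and gene lists were chosen with earlier results of these data known. Named genes are the 14 lower ratios of smallest adjusted p, up to 5 higher ones, the 8 narrowest intervals above the median change, Kdm5c, Kdm6a, Eif2s3x, Ddx3x, Ap1s2 and Klhl13, up to 5 totals per direction and members of lists. Other genes named were chosen after their values were seen, among them the remaining lower ratios, neighbours and the genes under the read minimum. Intervals use 95% confidence. Tables were made with pandas 2.3.3 and plots with matplotlib 3.10.9.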

Additional observations from a re-analysis of the deposited data

How the results depend on the processing

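The replicates are 2 and one day 5 library is the shallowest, so calls of single genes are the least firm values. The ratio fell in 24 and rose in 1 gene. With DESeq2 the calls were 10 (9 lower), with only the 4 Nons libraries 11 (10 lower), with 1 SNP per gene 6 (5 lower, 140 genes tested), and without a read minimum 2 were higher. Centred ratios gave 10 lower and 10 higher. Leaving out 1 library gave 10 to 14 calls, 9 to 13 lower and 1 to 2 higher, and Ap1s2, Utp14a and Klhl13 were called in each of these fits. Without the replicate block 17 were lower and 1 higher, all among the 25, and Bex2, Elf4, Gm364, Hdac6, Pim2, Tab3 and Usp26 were lost. Totals changed in 67 genes (30 lower, 37 higher). Without a read minimum 50 were lower, which follows from testing 355 genes, with only the 4 Nons libraries 40 changed (15 lower), with 1 SNP per gene 29 (10 lower, 19 higher), and without 1 library 23 to 68 (10 to 30 lower, 13 to 38 higher). With the replicate block 77 totals changed (35 lower, 42 higher), all of the 67 among them. The median Xi/Xa change kept its direction in every alternative.

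The ratio estimates that changed sign did not pass the test as reported, and the cause was not tested. Centred ratios were 0.17 in Kdm5c, 0.019 in Ddx3x, 0.32 in Flna, 0.33 in Alg13, 0.21 in Ocrl and 0.14 in Zfp280c, those of Flna (adjusted p 0.0161) and Alg13 (0.0349) past the threshold, and with 1 SNP per gene Flna gave 0.16. Leaving out 1 library gave ranges of -0.20 to 0.29 in Usp9x, -0.090 to 0.43 in Tceal9, -0.068 to 0.36 in Eda2r, -0.20 to 0.25 in Eif2s3x, -0.11 to 0.044 in Flna, -0.088 to 0.040 in Alg13, -0.062 to 0.21 in Firre, -0.30 to 0.22 in Ocrl and -0.52 to 0.35 in Zfp280c. All but those of Flna and Alg13 crossed 0 without day 5 replicate 1.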
